A study of Mus musculus with 6 samples.

Results

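Securin, encoded by Pttg1, and its partners in the mitotic checkpoint were examined in hindbrain tissue of mouse embryos at E10.5. The set held 10 genes: Pttg1, Espl1, Bub1, Bub1b, Mad2l1, Cdc20, Ccnb1, Plk1, Aurka and Aurkb. Every probe set with 1 of these as its single symbol in the platform annotation was taken, which gave 14 probe sets of 8 genes, out of 12393 genes named on the array. No probe set carries Espl1 or Ccnb1 as its single symbol there, and these genes are not analysed here. Pttg1 was chosen on its difference between mutant and wild type in these same arrays, so its values are a description with no test. The other genes were picked by their known function beside it.

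Hoxb1 mutant embryos were compared with normal (wild-type) embryos, both at E10.5. Each group had 3 pools of dissected rhombomere 4 segments from several embryos, stated to be independent biological replicates, and each pool was hybridised to 1 Affymetrix mouse 430A array. The tissue also held parts of the surrounding branchial arches. The Hoxb1 allele, its zygosity and the strain of the embryos are not stated in the labels used here. The comparison asks whether Pttg1 differed alone in the mutant tissue or together with the genes it works with.

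Securin holds the protease separase, the product of Espl1, inactive until every chromosome is attached to the spindle. Unattached kinetochores keep the checkpoint proteins Mad2 and BubR1 bound to Cdc20. Once Cdc20 is released, it activates the anaphase-promoting complex, a ubiquitin ligase that marks securin and cyclin B for destruction. Separase then cuts cohesin and the sister chromatids part. Most of these transcripts accumulate in G2 and M phase, and in the embryonic hindbrain the dividing cells are mainly the progenitors of the ventricular zone.

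Values are scaled intensities on a linear scale, and differences (mutant minus wild type) are those of log2(intensity + 16), with the standard error (SE) of limma's fit over all 22626 probe sets tested. Control probe sets for bacterial transcripts had a 95th percentile of 61.5, used here as the level of background. Hoxb1, the targeted gene, lay between 35.3 and 60.8 on the 3 mutant arrays, against 341, 378 and 588 on the 3 wild-type arrays, so that wild type was higher by at least 6.88-fold. The 18S ribosomal RNA controls set wild-type replicates 2 and 3 apart, at 12.1 and 11.3 on the log2 scale against 6.36 to 7.03 on the other 4 arrays. Median intensities ran from 187 to 214 over the 6 arrays. In limma 0 of the 22626 probe sets (0%) had an adjusted p under 0.05, and an unadjusted p under 0.05 was reached by 1.88% of them with a higher and by 3.88% with a lower mean in mutants.

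Pttg1 was higher in mutants with both of its bright probe sets. The probe set 1438390_s_at gave 5898, 6016 and 6230.5 on the mutant arrays, against 3697, 3462.5 and 3642 on the wild-type arrays. The lowest mutant array lay well above the highest wild-type array, and the arrays of each group lay close together. The means were 6048 ± 169 in mutants and 3600.5 ± 123 in wild type (SD, n = 3 each), a ratio of 1.68 and a log2 difference of 0.75 (SE 0.10, 95% interval 0.50 to 0.99).

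The probe set 1424105_a_at, a dimmer set of the same gene, gave 1235, 1367 and 1215 in mutants, against 742, 721 and 675 in wild type. Here too every mutant array lay above every wild-type array. The means were 1272 ± 82.9 in mutants and 713 ± 34.3 in wild type (SD, n = 3 each), a ratio of 1.79 and a log2 difference of 0.82 (SE 0.11). Across the 3 arrays of a group, these 2 probe sets did not follow each other. After group means were taken out, they correlated at -0.15 over the 6 arrays, so their likeness over all arrays (r = 0.98) was that of the 2 group levels. The correlations are descriptions from 6 arrays.

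The remaining probe set of Pttg1, 1419620_at, showed no such separation. It gave 110.3, 58.0 and 119 in mutants, against 95.4, 133 and 112 in wild type, and the groups overlapped. Its log2 difference was -0.25 (SE 0.25, 95% interval -0.85 to 0.35). It lay near background, with 1 mutant array below 61.5. In the Affymetrix naming, _a_at marks probes shared by transcripts of a gene, and _s_at and _x_at mark probes that can also match other genes. Which transcripts of Pttg1 each probe set reads was not analysed here.

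**Figure D1:**
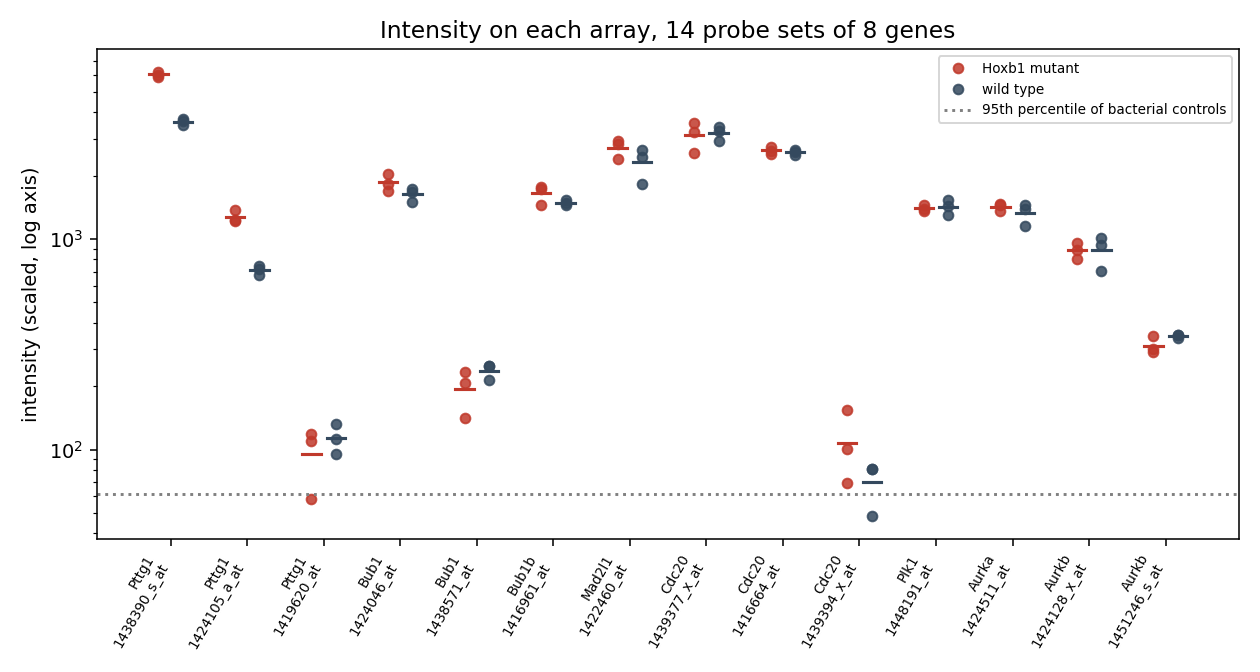
Intensity (log axis) of the 14 probe sets on each array, Hoxb1 mutant (red) left of wild type (dark), with points for arrays, short lines for means of 3 arrays and a dotted line at 61.5, the 95th percentile of the bacterial controls. The 2 bright Pttg1 probe sets are the ones whose groups do not overlap.

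Against the rest of the array, a difference of this size was rare among bright probe sets. Of 3457 probe sets with a mean above 1000, 25 had a log2 difference of 0.5 or more in either direction. By its log2 difference, 1438390_s_at ranked at place 2 among them from the top. These ranks describe the values by which Pttg1 was selected and add nothing to them.

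The genes whose pattern over the 6 arrays was most like that of 1438390_s_at held none of the mitotic partners. Among 9054 other genes above background on every array, the highest Pearson correlations belonged to Tmem230, Tmem47, Cox5b, Ro60 and Etaa1, at 0.98 each. Their log2 differences were 0.38, 0.48, 0.20, 0.69 and 0.29 (SE 0.10, 0.11, 0.10, 0.11 and 0.10). The correlations of the partners ran from -0.13 for Plk1 to 0.75 for Bub1. With group means taken out, the closest were Dym, Psat1, Cpsf3, Hgsnat and Mrpl22, at 0.99 each. Of the partners, Bub1 then had the highest value, at 0.93, and Mad2l1 the lowest, at -0.33. With 6 arrays and 9054 genes, values of this size are to be read as a ranking.

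The upstream sequences of the partners are shown because shared promoter elements are a known feature of genes transcribed in G2 and M phase. These elements are the cell cycle genes homology region, searched as TTTGAA or TTCGAA, and the CCAAT box, bound by NF-Y. Both strands were searched from 250 bases before to 50 after a RefSeq start. Of 9 members with such a window, 6 held the first and 7 held CCAAT, against 19.2% and 37.4% of all 32851 windows in the table. Matches are capitals in the stretches from 100 bases before to 50 after the start (RefSeq, GRCm38.p6), for Bub1 on the minus strand at chr2:127831810-127831959, Cdc20 on the minus strand at chr4:118437294-118437443 and Plk1 on the plus strand at chr7:122159335-122159484.
Bub1: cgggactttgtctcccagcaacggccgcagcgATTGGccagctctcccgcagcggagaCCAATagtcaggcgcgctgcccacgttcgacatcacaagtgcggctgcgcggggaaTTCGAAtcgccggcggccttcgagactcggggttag
Cdc20: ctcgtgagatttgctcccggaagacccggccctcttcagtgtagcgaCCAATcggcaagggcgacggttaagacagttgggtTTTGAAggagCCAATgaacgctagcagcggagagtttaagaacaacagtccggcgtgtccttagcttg
Plk1: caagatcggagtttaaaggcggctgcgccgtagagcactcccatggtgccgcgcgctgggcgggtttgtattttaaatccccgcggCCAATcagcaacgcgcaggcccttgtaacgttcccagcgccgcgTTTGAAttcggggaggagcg

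With the start as base 1, the homology match of Cdc20 began at -18, between CCAAT boxes that began at -53 and -8. Plk1 had its homology match at 31 and its CCAAT box at -14. Bub1 had a CCAAT box at -42 and another at -68, read as ATTGG because it lies on the other strand. Its match to TTCGAA began at 15. The window given for Pttg1 held neither element, but it starts 1482 bases inside the outermost annotated start of the gene, so it does not cover the sequence before that start, which is not analysed here. The window of Aurka likewise lay 316 bases inside, that of Espl1 39 bases and that of Bub1b 9 bases. Pttg1 was not the only member without a match. The window of Mad2l1, placed at its outermost start, also held neither element, and that of Ccnb1 held CCAAT but no homology match. A match is a description of letters, and no match says only that they are not in the window.

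The checkpoint kinases and their partner Mad2 lay slightly above wild type with overlapping groups. Bub1, a kinase of the kinetochore, gave 1696, 1830.1 and 2039 in mutants, against 1672, 1499 and 1720 in wild type (1424046_at). The highest wild-type array lay above the lowest mutant array, and the log2 difference was 0.18 (SE 0.12, 95% interval -0.11 to 0.48). A dimmer probe set of Bub1, 1438571_at, gave 194 ± 48.0 in mutants and 237 ± 20.4 in wild type (SD, n = 3 each), a log2 difference of -0.29 (SE 0.19), so the 2 sets of this gene differ in sign.

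Bub1b encodes BubR1, which binds Cdc20 in the checkpoint complex. It gave 1453, 1767 and 1723 in mutants, against 1455, 1488 and 1527 in wild type, and mutant replicate 1 lay below all of wild type. The log2 difference was 0.14 (SE 0.12, 95% interval -0.15 to 0.43). Mad2l1, which encodes Mad2, gave 2922, 2402 and 2825 in mutants, against 2462, 2654 and 1816 in wild type. Wild-type replicate 3 was low, the groups overlapped, and the log2 difference was 0.25 (SE 0.18, 95% interval -0.17 to 0.66).

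Cdc20, the activator of the anaphase-promoting complex through which securin is degraded, was close to wild type in both of its bright probe sets. The probe set 1416664_at gave 2631, 2528 and 2741 in mutants, against 2504, 2647 and 2589 in wild type, a log2 difference of 0.03 (SE 0.10, 95% interval -0.22 to 0.28). The arrays of both groups were interleaved. The probe set 1439377_x_at gave 3110 ± 519 in mutants and 3191 ± 239 in wild type (SD, n = 3 each), a log2 difference of -0.05 (SE 0.16). The set 1439394_x_at was near background, with 69.5, 154 and 100.2 in mutants against 80.5, 48.2 and 81.0 in wild type, and a log2 difference of 0.50 (SE 0.29) over overlapping groups.

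The mitotic kinases also lay close to wild type. Plk1, which acts in mitotic entry and in the removal of cohesin from chromosome arms, gave 1359.7, 1388 and 1449.7 in mutants, against 1295, 1439 and 1526 in wild type, and the mutant arrays fell inside the wild-type range. Its log2 difference was -0.02 (SE 0.11, 95% interval -0.29 to 0.25). Aurka, the kinase of spindle poles, gave 1447, 1362 and 1469 in mutants, against 1393, 1148 and 1447 in wild type. Wild-type replicate 2 was the low array there, and the log2 difference was 0.11 (SE 0.13, 95% interval -0.20 to 0.41). Aurkb, the kinase of the chromosomal passenger complex, had log2 differences of 0.01 (SE 0.16) and -0.15 (SE 0.11) with its probe sets 1424128_x_at and 1451246_s_at, both with overlapping groups.

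**Figure D2:**
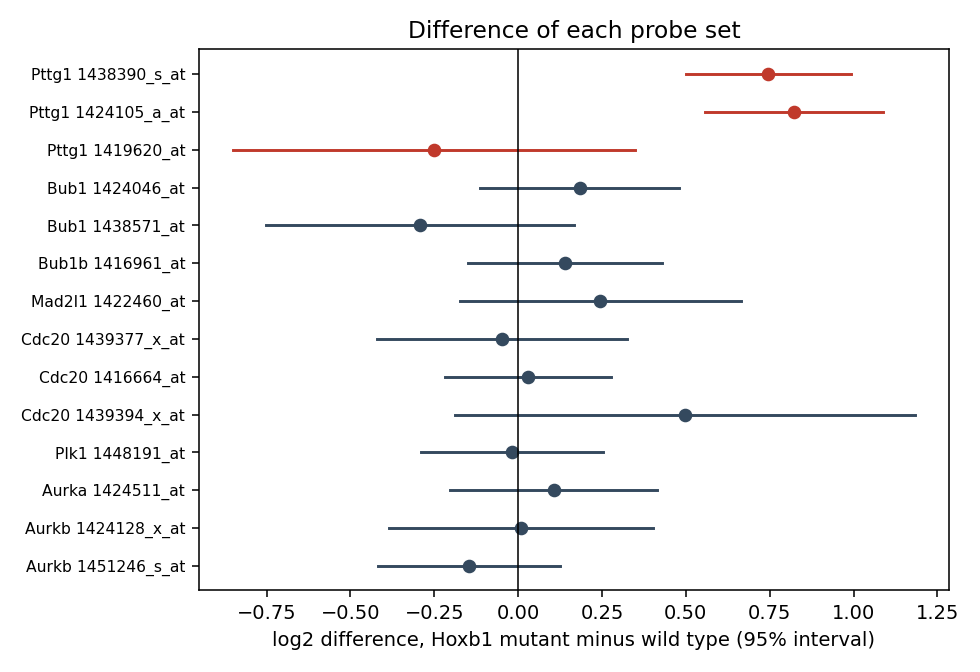
Log2 difference (mutant minus wild type) of each probe set with its 95% interval from the limma fit. The 2 bright Pttg1 probe sets (red) sit at 0.75 and 0.82, and the 7 partners' brightest probe sets lie between -0.05 and 0.25.

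None of the partners followed Pttg1 in size. With the brightest probe set per gene, the 7 partners had log2 differences of -0.05 to 0.25, of which 5 were above and 2 below 0. Their median was 0.11, while the median over all 12393 genes was -0.02 and 45.5% of them had a higher mean. Of the 2183 genes with a mean above 1000, 1316 had a higher mean, with a median of 0.03. The upper 95% bound lay below the 0.75 of 1438390_s_at for each of the 7, at most 0.66 for Mad2l1. That bound takes the Pttg1 value as fixed, although it was selected for its size. Among the 11 partner probe sets, 0 had an adjusted p under 0.05 in limma, against 0% of all probe sets, and 0 had an unadjusted p under 0.05, with adjusted p of 0.836 to 0.998. A p that misses the threshold does not show that these genes were equal in both groups, and the intervals above give the sizes that remain possible. Groups did not overlap in 0 of the 11 partner probe sets, against 4.88% of all probe sets with every mutant array higher and 7.08% with every mutant array lower.

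Array by array, the gap was present on each mutant array. Relative to the wild-type mean, 1438390_s_at lay 0.71, 0.74 and 0.79 log2 units up on mutant replicates 1, 2 and 3. The mean of the 7 partners lay 0.02, 0.06 and 0.19 up on the same arrays, and at 0.01, -0.04 and 0.04 on the wild-type arrays. Mutant replicate 3 was highest for this probe set and for the partners. The dimmer of the bright Pttg1 probe sets lay 0.78, 0.93 and 0.76 up on the same mutant arrays. It was thus lowest on mutant replicate 3. The median of the partners rests partly on wild-type replicate 2, the array with the highest 18S signal: without it the median log2 difference was 0.01.

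The wider machinery of chromosome segregation and other cell cycle genes were read from 8 lists of genes, written with earlier results of these data known. Besides segregation genes, the lists cover DNA replication and G1/S, and securin-linked genes with p53 targets. Of 120 genes listed, 104 were measured, 64 with a higher and 40 with a lower mean in mutants, and 0 passed in limma over all probe sets. A higher mean was found in 45.5% of all genes. Their median log2 difference was -0.02, against 0.04 for the list genes. Among genes with a mean above 1000 the list genes did not stand higher: the median was 0.02 for 57 of them, against 0.03 for all 2183. A higher mean was found in 36 of these 57 and in 1316 of the 2183. An unadjusted p under 0.05 was reached by 1 gene that was higher and 2 that were lower, against the shares of 1.88% and 3.88% given above. In 17 of the 104 (16.3%) every mutant array lay above every wild-type array, against 5.02% of all 12393 genes, and in 6 (5.77%) every mutant array lay below, against 7.30%. With centring on array medians the second count was 2. Of the 17 genes, 6 came from the list of DNA replication and G1/S and 1 from the securin-linked list. Bright genes leaned upward as a whole: of the 2183 genes with a mean above 1000, 9.89% were higher on every mutant array, and of the 57 list genes among them, 15.8%. With quantile normalization the share was 14.4% of the 104 genes against 6.06% of all, and 8.77% of the 57 bright ones against 7.60%. With centring it was 16.3% against 6.61%, and 12.3% of the bright ones against 9.76%. The share among list genes was thus above that among all genes under the 3 scalings. Among bright genes the gap was smaller. With quantile normalization it rested on 5 of the 57, near the share of all bright genes. These counts carry no test.

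The anaphase-promoting complex, which degrades securin, was balanced around 0, with 8 of its 16 measured genes higher and 8 lower and a median of 0.00. Its subunit Cdc27 gave 125 ± 25.5 in mutants and 90.8 ± 9.38 in wild type, and Cdc16 gave 2670 ± 168 in mutants and 2430 ± 32.6 in wild type (SD, n = 3 each). Cdc23, another subunit, gave 932 ± 62.1 in mutants and 1099 ± 131 in wild type, but its second probe set pointed up, at 541 ± 59.0 in mutants and 460 ± 99.2 in wild type. Fzr1, the coactivator that replaces Cdc20 after anaphase, had a log2 difference of -0.15 (SE 0.12).

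Cohesin, the ring that separase cuts, had 9 of 11 measured genes with a higher mean and a median of 0.08. Beside this count, 45.5% of all genes and 1316 of the 2183 with a mean above 1000 had a higher mean. Esco1, an acetyltransferase of cohesin, gave 413 ± 39.1 in mutants and 355 ± 14.6 in wild type, and the core subunit Smc3 gave 1924 ± 157 in mutants and 1692 ± 247 in wild type (SD, n = 3 each). Stag1, a regulatory subunit, had a log2 difference of -0.22 (SE 0.17) with its brightest probe set and 0.18, -0.10 and 0.18 (SE 0.12, 0.17 and 0.19) with the others, and the loader gene Mau2 one of -0.08 (SE 0.18). None of these differences approached that of Pttg1, and the highest in the list was 0.20.

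Other checkpoint and kinetochore genes had 10 of 13 measured members with a higher mean, against 45.5% of all genes, and a median of 0.07. Cenpf, a kinetochore protein that peaks in G2 and M phase, gave 2215 ± 78.8 in mutants and 1936 ± 237 in wild type, and Bub3, the partner of Bub1 and BubR1, gave 3891 ± 236 in mutants and 3485 ± 228 in wild type (SD, n = 3 each). The bright second probe set of Bub3 had a log2 difference of 0.01 (SE 0.11). Nuf2, of the Ndc80 complex, and Haspin, a histone kinase that places Aurora B, had log2 differences of -0.12 (SE 0.16) and -0.24 (SE 0.17). Among the 4 measured partners of the Aurora kinases, survivin (Birc5) and Incenp gave 0.02 (SE 0.12) and -0.04 (SE 0.11), and Ajuba, with a wide spread, -0.38 (SE 0.25).

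Of the transcription factors that drive G2 and M genes, Foxm1 and Mybl2 had lower means in mutants, the opposite side of 0 from Pttg1. Foxm1, a forkhead activator of Ccnb1, Plk1 and Aurkb among others, gave 618, 443 and 404 in mutants, against 687, 769 and 699.6 in wild type, with every mutant array below every wild-type array. Its log2 difference was -0.56 (SE 0.18; limma adjusted p = 0.833). The other 3 probe sets of Foxm1 also had lower means in mutants, but each with overlapping groups. Their log2 differences were -0.33 (SE 0.26), -1.63 (SE 0.51) and, below background on all arrays, -0.15 (SE 0.24). The set at -1.63 was dim, with 81.9 ± 70.0 in mutants and 254 ± 94.9 in wild type (SD, n = 3 each). Only 4 of its arrays lay above background. Mybl2, the B-Myb subunit of the activating MuvB complex, gave 300.2, 259 and 289 in mutants, against 354, 376 and 334 in wild type. Its groups, like those of the brightest Foxm1 set, did not overlap. The log2 difference of Mybl2 was -0.31 (SE 0.12, limma adjusted p = 0.833). Its dimmer probe set had -0.20 (SE 0.23).

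In the same list of 15 G2/M regulators, 7 had a higher and 8 a lower mean, with a median of -0.01. Cdk1, the kinase that cyclin B activates, gave 4064 ± 197 in mutants and 3707 ± 256 in wild type, and Ccna2, cyclin A2, gave 3310.3 ± 185 in mutants and 3025 ± 133 in wild type (SD, n = 3 each). Their log2 differences were both 0.13 (SE 0.11), and a second bright probe set of Ccna2 gave 0.00 (SE 0.13). In 4 of the 15 genes, Foxm1 and Mybl2 among them, every mutant array was below wild type, and in 1, Ccna2, above, against 7.30% and 5.02% of all genes. With quantile normalization these counts were 2 and 0.

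Among 20 genes of the spindle, cytokinesis and late cell cycle, 13 had a higher mean and the median was 0.06. That count is near the 1316 of 2183 found among genes with a mean above 1000, and 45.5% of all genes had a higher mean. Hmmr, a spindle protein, gave 1121, 1119 and 1071 in mutants, against 897, 969 and 781 in wild type, a log2 difference of 0.32 (SE 0.12; limma adjusted p = 0.833). The other 3 probe sets of Hmmr had overlapping groups, with log2 differences of 0.13, 0.23 and -0.12 (SE 0.12, 0.16 and 0.16). Anln, anillin of the cleavage furrow, had 0.23 (SE 0.12), while Racgap1, of the central spindle, and Tacc3, of spindle microtubules, had -0.20 (SE 0.11) and -0.30 (SE 0.18). The next brightest probe sets of Racgap1 and Tacc3 gave -0.01 (SE 0.12) and 0.01 (SE 0.13).

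Genes of DNA replication and G1/S, read as another phase of the cycle, had 12 of 19 with a higher mean and a median of 0.08. This count too is near the 1316 of 2183 found among genes with a mean above 1000, against 45.5% of all genes. Ccne2, cyclin E2, gave 505 ± 33.1 in mutants and 399.6 ± 57.7 in wild type, and Rrm1, a subunit of ribonucleotide reductase, gave 4446 ± 189 in mutants and 3659 ± 340.4 in wild type (SD, n = 3 each). A second bright probe set of Rrm1 had overlapping groups and a log2 difference of 0.13 (SE 0.16). In 6 of the 19 every mutant array was above wild type, and in 1 below, against 5.02% and 7.30% of all genes. The first count was 7 with quantile normalization and 4 with centring. Ccne1 and Mcm3 had log2 differences of -0.23 (SE 0.18) and -0.13 (SE 0.12). The other probe sets of Mcm3 differed in sign, at 0.13, 0.06, -0.01 and -0.03 (SE 0.14, 0.14, 0.14 and 0.15). In the short list of securin-linked genes and p53 targets, Xrcc6, which encodes the DNA end-binding protein Ku70, gave 563 ± 8.16 in mutants and 475 ± 14.9 in wild type. Pttg1ip, which encodes a securin-binding protein, had a log2 difference of 0.11 (SE 0.14), and Mdm2 and Myc had -0.10 (SE 0.14) and -0.04 (SE 0.13).

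**Figure D3:**
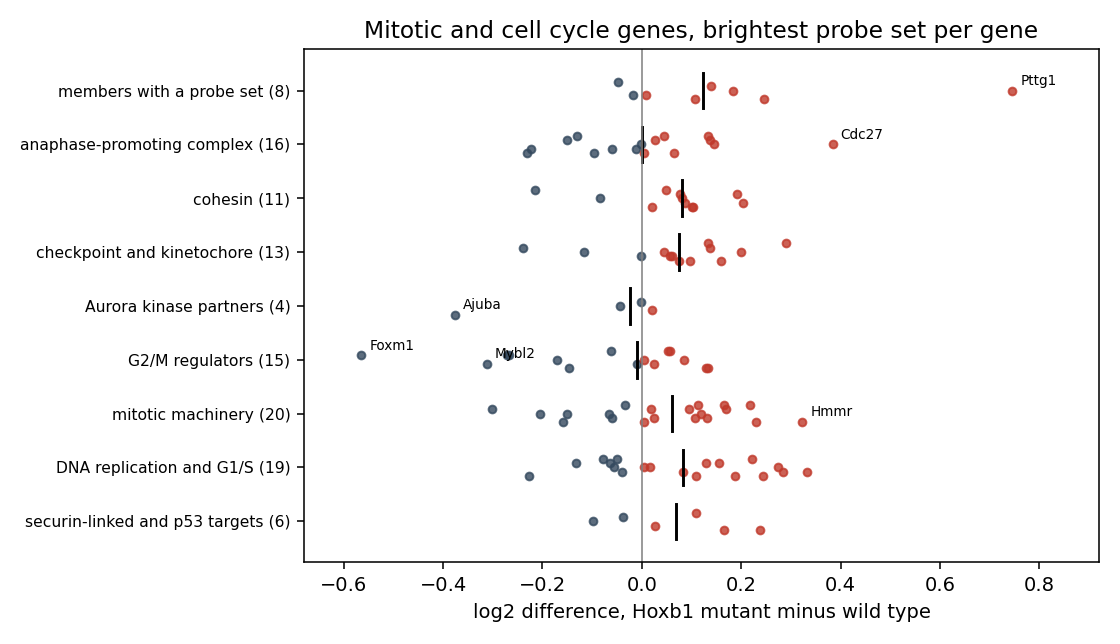
Log2 difference (mutant minus wild type) of each measured gene, 1 point per gene from its brightest probe set, in the members and the 8 lists, with the number measured in brackets and a vertical bar at the median (red above 0, dark below). Pttg1 at 0.75 lies beyond every gene of the 8 lists, whose highest value is 0.38 for Cdc27, and Foxm1 at -0.56 is the lowest.

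Markers of the cells in the dissected tissue were read beside these counts, and their part in them was not tested. In bulk tissue, fewer cells of a type and less RNA per cell cannot be told apart. Of 8 neural progenitor markers, 7 lay above background on all arrays, 2 had a higher and 6 a lower mean in mutants, and their summed intensity was 8576 to 9459 in mutants, against 9387 to 11041 in wild type. All 8 neuronal markers were above background, all 8 had lower means in mutants (median log2 difference -0.21), and their sum was 10721 to 13988 in mutants, against 13151 to 15544 in wild type. Of 9 measured markers of arch mesenchyme, 8 had lower means, with sums of 9847 to 10447 in mutants, against 10835 to 11441 in wild type, where the groups did not overlap.

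The sums of blood, vessel and epithelial markers overlapped between groups. Erythroid cells circulate and still divide at this stage, and the sum of 6 of their genes was 36922 to 40897 in mutants, against 33449 to 38787 in wild type, with 4 means higher and 2 lower (median log2 difference 0.13). The sum of 6 endothelial genes was 1703 to 1958 in mutants, against 1716 to 1944 in wild type, with 1 mean higher and 5 lower (median -0.07). Of 6 macrophage markers, 2 lay above background on all arrays and C1qa on none, with a sum of 628 to 1094 in mutants, against 898 to 997 in wild type. Macrophage markers had 1 mean higher and 5 lower, with a median log2 difference of -0.32. The 5 measured epithelial and otic markers summed to 2627 to 3281 in mutants, against 2538 to 3305 in wild type. Of the 4 measured markers of the rhombomere 4 region, Hoxb1 included, 3 were above background on all arrays and all 4 had lower means in mutants. Their sum was 1693 to 1998 in mutants, against 2295 to 2502 in wild type, without overlap. Hoxb1 itself, the targeted gene, is part of this sum, at 35.3 to 60.8 in mutants and 341 to 588 in wild type. The gap therefore holds the loss of Hoxb1 and is not a separate reading of the region. The sum without Hoxb1 was not analysed here.

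Pttg1 and Hoxb1 both lie on mouse chromosome 11, so the measured genes next to Pttg1 were examined, a choice made after its values were seen. Of the 5 measured genes on each side in RefSeq order, 0 had a log2 difference of 0.5 or more in either direction, and the range was -0.27 to 0.32. That size was reached by 4.90% of the other genes of chromosome 11 and by 5.43% of genes on other chromosomes, so a count of 0 in 10 is near the background. Slu7, a splicing factor gene and the nearest measured neighbour on the side of higher coordinates, gave 769, 857 and 839 in mutants, against 933, 950.0 and 956 in wild type, the opposite direction to Pttg1 and without overlap. On the other side, Hmmr was also without overlap but higher in mutants, with a log2 difference of 0.32 (SE 0.12). Nudcd2, with overlapping groups, had 0.32 (SE 0.15), and Ccng1, cyclin G1, 0.17 (SE 0.22). Gabrb2, the nearest on that side, had -0.25 (SE 0.16). Over the 1041 other genes of chromosome 11, every mutant array was higher in 5.38% and lower in 9.61%, against 4.98% and 7.08% of the 11335 genes placed on other chromosomes.

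**Figure D4:**
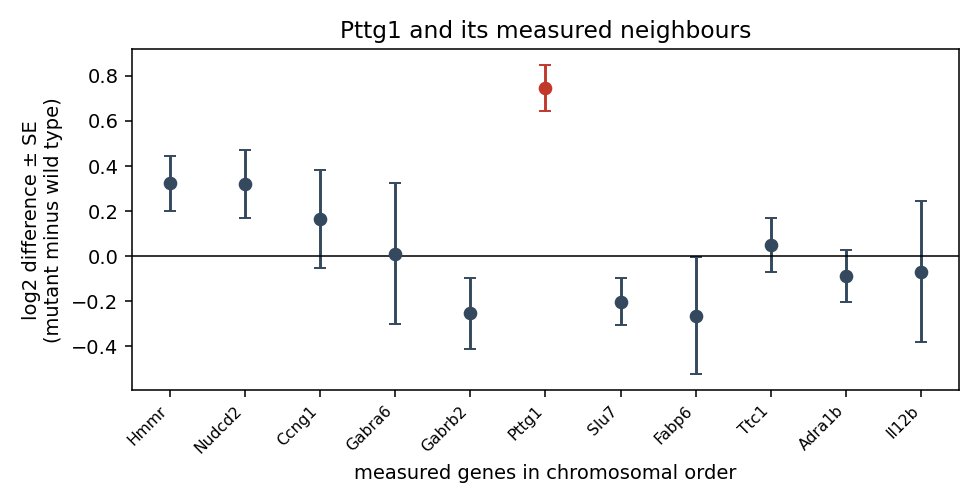
Log2 difference (mutant minus wild type) with its standard error for Pttg1 (red) and the 5 measured genes on each side of it on chromosome 11 (dark), in chromosomal order, evenly spaced. Pttg1 at 0.75 stands above its neighbours, which lie between -0.27 and 0.32.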

How the data were processed

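Total RNA from 3 Hoxb1 mutant and 3 wild-type pools was hybridised to Affymetrix 430A arrays. The deposited values are linear intensities, 1 per probe set and array, scaled by the authors so that the mean with 2% trimmed at each end was 500 on each array, as the values show. Per the submitters' processing notes the tool was affy. The expression algorithm is not stated there. Of 22690 probe sets, 64 controls were left out, and 20380 of the rest name 1 gene, with symbols updated through Entrez identifiers (RefSeq, GRCm38.p6). The fit was limma 3.58.1 in R 4.3.3 (lmFit, eBayes, 2-sided, no covariate, 6 arrays) on log2(intensity + 16), adjusted by Benjamini-Hochberg over all probe sets, with a threshold of 0.05. It was tested on simulated data. In lists a gene was read from its brightest probe set. Genes were named by rule: all members, up to 2 per list and direction of smallest p, and the 5 most like Pttg1. Other probe sets of named genes, and the neighbours of Pttg1, were chosen after their values were seen. The members, lists and alternatives were chosen with earlier results of these data known. Alternatives were other scalings, pseudocounts, filters, variance settings, array weights, a replicate block, the 18S signal, and leaving out arrays. The replicate numbers are shared by both groups, but deviations of same-numbered arrays correlated at 0.05, -0.02 and 0.04, so they were not treated as pairs.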

Additional observations from a re-analysis of the deposited data

How the results depend on the processing

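The Pttg1 probe set 1438390_s_at kept a positive log2 difference under all 16 alternatives. It was 0.70 with quantile normalization and 0.80 with centring on array medians, and 0.72 to 0.77 without each array in turn. No member was called with the settings used throughout, and with trend and robust variance settings 1 was, Pttg1 1438390_s_at, which was selected on this contrast. Over the whole table, 0 probe sets passed, against 3 with quantile normalization, 4 with centring, 2 without the dimmest 33.3% of probe sets, 3 with trend and robust settings and 4 with array weights. The partners' median stayed above 0, at 0.01 to 0.12 when single arrays were left out and 0.09 under the 18S covariate. The sign of the bright Cdc20, Plk1 and Aurkb differences, all near 0, varied over the alternatives. With the replicate block 0 probe sets were called and the partners' median was 0.11. In the pathway lists 0 genes were called under any of 17 alternatives. Intensities near 61.5, as in 1419620_at and 1439394_x_at, are limited by background, and the number of arrays limits every value.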
